A study of Mus musculus with 56 samples.

Results

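Ribosome biogenesis factors are the proteins that transcribe, cut, modify and fold ribosomal RNA and fit ribosomal proteins onto it before the finished subunits leave the nucleus. A list of 41 such genes was followed by gene symbol through both RNA-seq count tables of a study of CD4 T cells from mouse spleen (C57BL/6). All 41 were usable among the 24421 symbols of experiment 2, and 37 among the 19791 symbols of experiment 1. Noc2l has no row in experiment 1, and Nop14, Gnl2 and Wdr74 were listed there at 0 counts. Fbl, with 81 counts in experiment 1, did not pass the filter on low counts, so 36 members were tested there and 41 in experiment 2.

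All activated cells were naive CD4 T cells stimulated with beads coated with antibodies to CD3 and CD28, which engage the T-cell receptor and its costimulator, in complete RPMI without added cytokines. Experiment 1 (18 libraries, 6 groups of 3) holds naive and mature CD4 cells enriched on magnetic columns and not activated, and cells started at 250000 per ml in 96-well plates and sorted at 48 or 72 h into CD62L positive and CD62L negative cells. Experiment 2 (38 libraries, 13 groups) holds sorted naive cells, and CD4 cells at 18, 30, 48 and 72 h from 24-well cultures started at 1000000 per ml (high) or 62500 per ml (low). It also holds CD62L positive and CD62L negative cells, all CD44 positive, at 48 and 72 h from cultures started at 250000 per ml. There are 3 libraries per group, but 2 for the low concentration at 72 h. CD62L is the homing receptor for lymph nodes, kept by naive and central memory cells. By the labels, the high and low groups differed in the number of cells started per volume. At 48 and 72 h they also differed in a second number in the titles, of unstated meaning. The study's title names cell collectivity and early memory differentiation as its subject. The labels do not say whether libraries of a group came from separate mice or cultures, so each p-value measures only the spread between these libraries.

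In the nucleolus, RNA polymerase I transcribes one long precursor RNA that is cut into all but one of the ribosomal RNAs. Small nucleolar RNPs guide its chemical modification, box C/D particles for methylation of the sugar and box H/ACA particles for pseudouridine. A large assembly, the small subunit processome, folds and cuts the part that becomes the small (40S) subunit, while other factors mature the large (60S) subunit. Resting T cells make few ribosomes, and activation that prepares for division is known to bring a burst of nucleolar growth, in which the transcription factor Myc takes part.

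Counts per library ran from 58750 to 1738555 in experiment 1 and from 587118 to 3359875 in experiment 2, and the lowest 3 in experiment 1 were the naive libraries. Levels are TMM-scaled CPM (the count over the scaled library total, times 1000000) within each table, and are never compared between tables. Differences are log2 values with their standard error (SE), and the words rose, fell, higher and lower stand for an adjusted p under 0.05 in edgeR's quasi-likelihood test, by Benjamini-Hochberg over the 8961 genes tested in experiment 1 or the 9239 in experiment 2. In bulk samples, fewer cells making an RNA and less of it per cell cannot be told apart. Summed over the list, the members took 0.234 to 0.29% of all counts in naive libraries of experiment 2, 1.4 to 1.52% at 18 h, 0.562 to 0.629% at 48 h at the high concentration, 0.975 to 1.08% at 48 h at the low concentration and 0.365 to 0.457% at 72 h over both concentrations. Ribosomal protein genes took 24.7 to 45% of the counts in experiment 2, the most in naive cells, and 0.579 to 1.11% in experiment 1. Members differed greatly in how well the 2 tables covered them. Ncl had 9903 counts in experiment 1 and 547 in experiment 2, Nip7 2073 and 206, and Fbl 81 and 13316. Why the tables differ was not tested. Npm1 has many processed pseudogenes, and several members overlap or host small nucleolar RNA genes, so their counts are uncertain where the counting could not separate those. T-cell markers were present in every group. Those of B, myeloid, CD8 and NK cells and of red cells and platelets are given beside the results of experiment 1, where they move with the naive and mature groups and some sorts, and in experiment 2 the lists of NK cells and of red cells and platelets were at 0 in every group, while B-cell genes summed to 0 to 14.93 CPM, myeloid genes to 0 to 26.5 and CD8 genes to 13.1 to 96.15. The CD8 sum there is nearly all Cd8b1, since Cd8a, the defining gene, reached at most 1.121 CPM. It moved with time and with the starting concentration, and was 33.95 to 37.19 CPM in naive cells. At 18 h it was 68.01 to 96.15 CPM at the high and 47.29 to 62.81 at the low concentration. At 30 h it was 37.45 to 63.53 at high and 30.03 to 35.44 at low. At 48 h the ranges overlapped, with 21.87 to 32.32 at high and 13.23 to 22.42 at low. The part of this sum in the comparisons was not tested.

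Within 18 h of activation nearly the whole list rose. Against naive cells, 40 of 41 members were higher in experiment 2 and none was lower, where 32.3% of all tested genes were higher. The member median was 2.05 on the log2 scale, against 0.00 over all genes. The only member not past the test was Nip7, a factor of large subunit maturation, with 0.34 ± 0.56 (SE) on 206 counts in all. All 40 calls held in each of the 16 alternative analyses.

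Polr1a and Polr1b are the 2 largest subunits of RNA polymerase I. Polr1a read 34, 35.5 and 39.9 CPM in the naive libraries, 70.8, 72.4 and 77.8 at 18 h at the high concentration and 89.1, 57 and 62.4 at the low. All 6 activated libraries lay above the naive ones, with a log2 difference of 0.98 ± 0.18 (SE, adjusted p = 5.23e-06), the smallest rise among the members called. Polr1b went from 24.7, 11.8 and 14.3 CPM in naive cells to 74.5, 99.2 and 60.4 and 86.2, 70.3 and 80.2, a log2 difference of 2.25 ± 0.22 (SE, adjusted p = 5.85e-13). Polr1c, shared by RNA polymerases I and III, rose by 1.26 and Cd3eap, a further polymerase I subunit, by 1.62.

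All 3 listed core proteins of the box C/D particles rose. Nop56 stood at 50.1, 41.1 and 68 CPM in naive libraries, 419, 386 and 426 at 18 h at the high concentration and 421, 405 and 456 at the low. No activated library came near a naive one, and the log2 difference was 2.97 ± 0.17 (SE, adjusted p = 2.19e-21). Its partner Nop58 rose by 3.43, and Fbl, the methyltransferase of the particle, by 1.79. In the box H/ACA group, Dkc1, the pseudouridine synthase, measured 58.6, 92.1 and 109 CPM in naive cells and 411, 456 and 398 and 502, 488 and 476 at 18 h. Its log2 difference was 2.37 ± 0.16 (SE, adjusted p = 2.69e-18), and the other core proteins Gar1 and Nhp2 rose by 2.64 and 2.56. Nolc1, a chaperone of both kinds of particle, rose by 1.29. Npm1, the abundant nucleolar chaperone, was counted at 427, 594 and 722 CPM in naive cells, 4256, 3737 and 3742 at the high and 2908, 3791 and 3468 at the low concentration at 18 h. These groups were far apart, at a log2 difference of 2.65 ± 0.17 (SE, adjusted p = 1.77e-18). Ncl, nucleolin, had the highest fitted difference on the list, 3.57 ± 0.47 (SE), on 6 counts over the 3 naive libraries.

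All 11 small subunit factors rose. The lowest difference was that of Nop14 (1.01) and the highest that of Wdr75 (2.56 ± 0.31, SE), with Noc4l, the partner of Nop14 in the processome, next at 2.53 ± 0.18. Heatr1, a large processome protein, read 73.3, 90.8 and 94.6 CPM in naive libraries and 254, 197 and 206 and 240.3, 261 and 216 at 18 h, so every activated library was above every naive one. Its log2 difference was 1.40 ± 0.14 (SE, adjusted p = 3.24e-12). Rrp12 rose by 2.15, Utp20 by 2.41 and Rrp9, a protein of the U3 particle, by 1.40. Of 17 large subunit factors, 16 rose. Nop16 increased most among them, from 22.4, 28 and 35.1 CPM to 226, 322 and 225 at the high and 285, 226 and 253 at the low concentration, with no overlap and a log2 difference of 3.15 ± 0.17 (SE, adjusted p = 6.67e-22). Gnl3 (nucleostemin) rose by 3.06, Mrto4 by 2.92, Nop2, an RNA methyltransferase, by 2.55, Ppan by 2.23 and the RNA helicase Ddx21 by 1.83. Bop1, Pes1 and Wdr12 form one complex, and their differences were 1.43, 1.38 and 2.33. Other genes of the pathway moved likewise: of 101 listed, 92 were tested, 80 rose and 2 fell, where 3102 of all 9239 tested genes fell. The 2 that fell were Taf1c, of the polymerase I initiation factor, and Ddx24, at -0.80 and -0.45. Myc, no member of the list, rose by 2.32 between naive cells and 18 h.

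Because the members rose together, their promoters are shown. Of the 41 genes, 35 have at least one entry (39 promoters) in the RefSeq promoter table of GRCm38.p6, which runs from 250 bases before to 50 after each start site; Npm1, Bop1, Rrs1, Gnl2, Rrp12 and Fbl were not matched. The palindrome CACGTG, the E-box that Myc and Max are known to bind, occurs in 7 of the 39 member promoters (17.9%), each of another gene, and in 7.15% of all 32851 promoters in the table. The motif reads the same on both strands, and no match can share its end letters with one of TATAAA, the other motif found in these promoters.

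The 8 matches are given here in windows of 30 bases, 5′ to 3′ on the strand of the gene. Capitals mark the motif, and the position of its first base is counted from the start site, with no position 0.
Cd3eap, chr7:19359684-19359713 (minus strand), motif from -218: gttggaagaaacCACGTGagcaaagttgtc
Cd3eap, chr7:19359446-19359475 (minus strand), motif from 21: accccttggatcCACGTGgtgggcagcgtt
Nop2, chr6:125131811-125131840 (plus strand), motif from -60: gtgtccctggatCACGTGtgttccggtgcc
Pes1, chr11:3963965-3963994 (plus strand), motif from 3: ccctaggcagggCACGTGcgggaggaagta
Tsr1, chr11:74898092-74898121 (plus strand), motif from 25: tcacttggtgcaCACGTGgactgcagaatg
Utp18, chr11:93885769-93885798 (minus strand), motif from -20: gcgagcgccggtCACGTGgcttgcggcggc
Utp20, chr10:88826765-88826794 (minus strand), motif from 38: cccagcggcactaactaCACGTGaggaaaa
Wdr43, chr17:71616220-71616249 (plus strand), motif from 18: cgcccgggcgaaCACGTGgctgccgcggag

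All of these genes rose at 18 h, as did 40 of the 41 members, so the rise does not set them apart from the list. Cd3eap rose by 1.62, Nop2 by 2.55, Pes1 by 1.38, Tsr1 by 1.74, Utp18 by 1.98, Utp20 by 2.41 and Wdr43 by 1.56. The median of the whole list was 2.05, and of these genes only Nop2 and Utp20 lay above it. TATAAA, searched on both strands, was found in 3 member promoters (7.69%, Dkc1, Pes1 and Ppan) and in 13.6% of all promoters. The palindromic motifs of the factors BANP and NRF1 were found in 0 member promoters and in 0.466% and 0.971% of all. A match is a stretch of letters in the window, not a measured binding site, and binding was not measured.

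**Figure D1:**
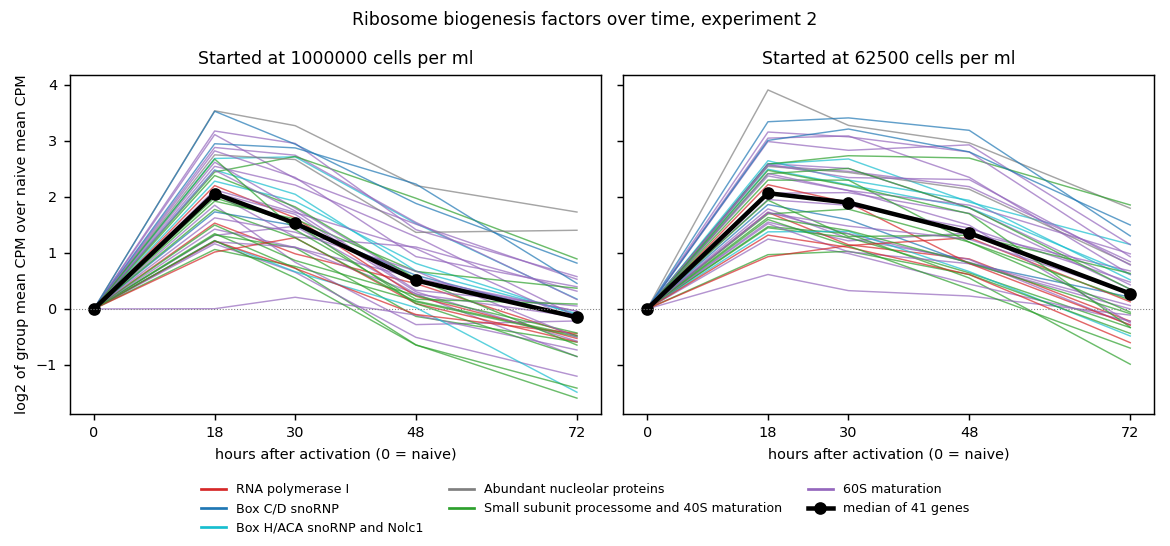
Group mean CPM of each of the 41 members over its naive mean, as log2, against hours after activation in experiment 2, for the high (left) and low (right) starting concentration. Thin lines are genes coloured by role, and the black line with points is their median. The lines rise at 18 h in both panels and are lower at 48 h on the left than on the right.

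From 18 to 30 h, over both concentrations, 15 of 41 members fell and 0 rose, with a member median of -0.31 against 0.01 over all genes, of which 10.6% fell. The lowest differences were those of Wdr75 (-0.78 ± 0.21, SE), Ddx21 (-0.77 ± 0.12) and Rrp9 (-0.57 ± 0.15), and the highest, none past the test, were those of Noc4l (0.22), Polr1a (0.21) and Nop56 (0.07). Experiment 2's titles carry a second number, 1 or 2, of unstated meaning. It is 1 in all libraries at 18 h and 2 in all at 30 h. With that number as a covariate 6 members were called, and with no filter on low counts 9 were. Only Cd3eap, Rrp9 and Wdr43 were called in all 19 alternatives. Of the other genes of the pathway, 22 of 92 fell and 0 rose. Myc fell over this interval by 1.01 on the log2 scale.

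Between 30 and 48 h most members fell at the high concentration. There 39 of 41 fell and 0 rose, where 13.3% of all tested genes fell. The 2 members not past the test were Gnl2 (-0.19) and Nip7 (-0.30), and the median was -1.11 against 0.06 over all genes. Nop16 went from 202, 227 and 235 CPM at 30 h to 59.6, 83.2 and 85.1 at 48 h, without overlap, a log2 difference of -1.53 ± 0.16 (SE, adjusted p = 1.29e-10). Rrp12 (-1.44) and Polr1b (-1.43) followed it, while Cd3eap had the smallest fall (-0.54). Of the 39 calls, 33 held in all 13 alternatives. At the low concentration over the same hours, 16 of 41 members fell and 0 rose, where 3.55% of all tested genes fell, and the median was -0.41. All libraries at 30 h and the high ones at 48 h carry the second title number 2, while the low ones at 48 h carry both numbers. Time and that number are therefore partly mixed at the low concentration only. Rrp12 (-1.10 ± 0.18, SE), Polr1b (-1.09 ± 0.21) and Heatr1 (-0.79 ± 0.15) fell most. Polr1a read 78.1, 74.6 and 86.8 CPM at 30 h and 68.3, 109.9 and 86 at 48 h, and the groups overlapped. It, Bop1 and Mrto4 had values of 0.14, 0.14 and 0.10, none past the test. The count at the low concentration moved with single libraries: it was 9 without 30 h low library 1, 10 without 48 h low library 1, 7 without 48 h low library 2 and 10 without 48 h low library 3. Among other genes of the pathway, 57 of 92 fell at the high concentration and 12 at the low, where 1 rose.

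Members came to differ between starting concentrations between 18 and 48 h. At 18 h no member differed between high and low, where 1.87% of all tested genes did by edgeR's quasi-likelihood test. There 1 member had an unadjusted p under 0.05, DESeq2 called 0, and a fit of the compared groups alone called 1. The median was -0.07, and values ran from -0.49 (Nip7), -0.38 (Rrp9) and -0.34 (Pes1) to 0.19 (Nop58), 0.21 (Npm1) and 0.26 (Rrs1). By 30 h, 8 members were lower at the high concentration and 0 higher, beside 3.93% of all tested genes lower, with a member median of -0.27. Gnl3 read 279.5, 348 and 305 CPM at high and 500.2, 562 and 517 at low, which did not overlap (-0.76 ± 0.16, SE, adjusted p = 0.000874). Gnl3 and Ftsj3 (-0.71) alone were called in all 13 alternatives. Gnl2 (-0.79) had an adjusted p of 0.0544 without 30 h high library 3, and Rrp12 (-0.76) of 0.0689 without 30 h low library 1. Without 30 h high library 3 the count was 4, and without 30 h low library 1 it was 3. Not past the test were Wdr75 (-0.80) and the 3 highest, Utp18 (0.30), Bop1 (0.26) and Npm1 (0.23).

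At 48 h, 33 of 41 members were lower at the high concentration and 0 were higher, where 12% of all tested genes were lower and 13.9% higher. All 41 had values below 0, with a median of -0.83 against 0.04 over all genes. The 8 members not past the test were Fbl, Gar1, Ncl, Nip7, Noc2l, Polr1b, Rrp1b and Utp18, with Fbl (-0.22), Noc2l (-0.29) and Nip7 (-0.30) closest to 0. By role, 3 of 4 polymerase I subunits, 2 of 3 box C/D proteins, 3 of 4 of the H/ACA group, 1 of 2 abundant nucleolar proteins, 10 of 11 small subunit factors and 14 of 17 large subunit factors were lower.

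Polr1a had 41.1, 38.3 and 37.3 CPM at high and 68.3, 109.9 and 86 at low, so all high libraries lay under all low ones (-1.18 ± 0.19, SE, adjusted p = 4.16e-06). For Heatr1 the values were 60.5, 49.8 and 55.5 at high and 129, 131 and 120.1 at low, again apart, at -1.20 ± 0.16 (SE, adjusted p = 9.25e-08). Naive libraries, at 73.3, 90.8 and 94.6 CPM, lay between them. Bop1 measured 146, 100.2 and 90.6 against 269.5, 215 and 231 CPM, a difference of -1.10 ± 0.15 (SE, adjusted p = 1.49e-07). Its partner Pes1 was at -0.54 ± 0.18, with an adjusted p of 0.0186, which became 0.079 without 48 h low library 2 and 0.104 without 48 h low library 3. Wdr12, the third member of that complex, had the lowest value on the list (-1.46 ± 0.35). Nop16 stood at 59.6, 83.2 and 85.1 CPM at high and 201, 199 and 196 at low (-1.37 ± 0.16, SE, adjusted p = 3.51e-09), and Mrto4, which matures the large subunit's stalk, at -1.39. Wdr75 (-1.44, or -2.05 without 48 h high library 3) completed the lowest 3. Nop56 counted 319.9, 207 and 219.9 CPM at high and 318, 353 and 441 at low. The groups overlapped in 1 high library. The difference was -0.58 ± 0.16 (SE, adjusted p = 0.00421), and its adjusted p was 0.0668 without 48 h low library 3. Npm1 was lower by 0.77 ± 0.17 (SE), Dkc1 by 1.00, Ddx21 by 1.15 and Ppan by 1.19.

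Among these 33 calls, 20 held in all 14 alternatives, and the count without any 1 library was 27 to 35. The second title number is 2 in all high libraries at 48 h and in 1 of 3 low libraries. With only the libraries that share a number, 3 high against 1 low, 21 members were lower, with the spread of that single low library taken from the rest of the fit. Leaving ribosomal protein genes out of the scaling gave 34. The CD8 sum at 48 h was 21.87 to 32.32 CPM at high and 13.23 to 22.42 at low, and its part was not tested. The change of the high minus low difference from 18 to 48 h was itself tested: 20 members had a lower difference at 48 h and 0 a higher one, where 7.71% of all tested genes had a lower one. The 3 with the smallest adjusted p were Nop16 (-1.39 ± 0.23, SE, adjusted p = 1.6e-05), Nhp2 (-1.10 ± 0.19, SE, adjusted p = 3.26e-05) and Ftsj3 (-1.31 ± 0.25, SE, adjusted p = 0.000164). Of other genes of the pathway, 0 of 92 were lower at high at 18 h, 4 at 30 h with 1 higher, and 47 at 48 h with 0 higher. Pno1, a 40S assembly factor, was at -1.70 at 48 h. Myc did not pass the test at 48 h: its high minus low value was 0.30 ± 0.22 (SE, adjusted p = 0.342).

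**Figure D2:**
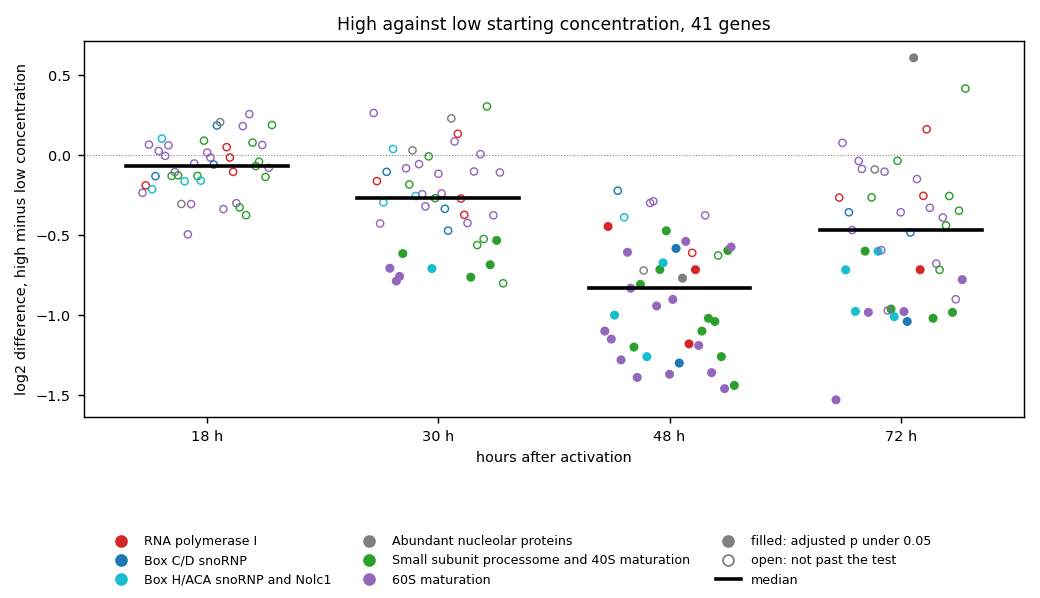
High minus low starting concentration as log2 difference for the 41 members at 18, 30, 48 and 72 h, 1 point per gene coloured by role, filled where the adjusted p is under 0.05. The bars are medians. At 48 h all 41 points lie below 0 and 33 are filled.

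Most members fell again on the way to 72 h. From 48 to 72 h, 28 of 41 fell at the high concentration and 0 rose (median -0.75), where 12% of all tested genes fell. At the low concentration 35 fell and 0 rose (median -1.15), where 11.6% of all tested genes fell. All high libraries carry the second title number 2 at 48 h and 1 at 72 h. Time and that number therefore cannot be told apart at the high concentration within the compared groups. Low libraries carry both numbers at 48 h and only the number 2 at 72 h. At high, Nop56 dropped from 319.9, 207 and 219.9 to 80.6, 74 and 63.8 CPM, without overlap (-1.76 ± 0.18, SE, adjusted p = 1.08e-10). Nolc1 (-1.49) and Nop2 (-1.41) were next lowest. Ddx21 (0.05 ± 0.2, SE), Npm1 (0.04 ± 0.17) and Wdr75 (-0.17 ± 0.37) were the 3 highest, none past the test. At low, the lowest 3 were Wdr75 (-2.03), Nop58 (-1.89) and Nop16 (-1.87). Npm1 fell there by 1.34 ± 0.2 (SE) and Ddx21 by 1.17 ± 0.21. Nip7 (-0.35), Fbl (-0.60) and Noc3l (-0.66) were closest to 0 and did not pass the test. In the alternatives, 18 of 28 calls at high and 29 of 35 at low held throughout. Other genes of the pathway fell in 35 of 92 cases at high, with 1 higher, and in 59 at low, with 0 higher.

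At 72 h itself, 14 members were lower at the high concentration and 1 was higher, where 13.5% of all tested genes were lower and 13% higher. The member median was -0.47. Bop1 read 53.2, 49.9 and 51.8 CPM at high and 141 and 158 at low, the lowest difference on the list (-1.53 ± 0.18, SE, adjusted p = 7.29e-09). Nop56 measured 80.6, 74 and 63.8 against 143 and 158 CPM and did not overlap either (-1.04 ± 0.19, SE, adjusted p = 4.51e-05). The H/ACA group was lower in 4 of 4 cases: Gar1 (-0.98), Nolc1 (-1.01), Dkc1 (-0.72) and Nhp2 (-0.60). Of these calls only that of Nhp2 held in all alternatives. The adjusted p of Nolc1 was 0.0737 without 72 h high library 1 and 0.161 without 72 h low library 1. That of Dkc1 was 0.0799 without 72 h low library 2. Rrp12 was at -1.02, with an adjusted p of 0.00492, or 0.0598 without 72 h high library 1. Npm1 went the other way. It stood at 1725, 1449 and 1441 CPM at high and 881 and 1136 at low, a difference of 0.61 ± 0.19 (SE, adjusted p = 0.0158), but the adjusted p was 0.0716 without 72 h high library 1 and 0.258 without 72 h low library 1. Wdr75 (0.42) and Polr1c (0.16) were the next highest, neither past the test. Bop1, Mrto4, Nhp2, Noc4l, Nop2, Nop56 and Wdr74 were lower in all 12 alternatives. Without 72 h high library 1, 9 members were called. All high libraries at 72 h carry the second number 1 and both low libraries the number 2, so concentration and that number cannot be told apart at this time within the compared groups. Ribosomal protein genes took 32.2 to 33.7% of the counts in the high and 25.1 to 25.4% in the low libraries, and leaving them out of the scaling gave 16 calls in place of 15. The CD8 sum was 31.84 to 37.92 CPM at high and 14.16 to 15.64 at low, with Cd8a at 0 in both, and its part in the result was not tested.

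The difference between concentrations became higher from 48 to 72 h for 8 members and lower for 0, where 4.68% of all tested genes had a higher difference at 72 h. Npm1 (1.38 ± 0.26, SE, adjusted p = 0.000195), Ddx21 (1.22 ± 0.28, SE, adjusted p = 0.0025) and Polr1c (0.88 ± 0.22, SE, adjusted p = 0.00554) had the smallest adjusted p. Polr1c's was 0.0644 without 72 h low library 1. Npm1 alone was called in all 18 alternatives. The count was 5 without 48 h low library 2 or 3, 72 h high library 1 or 72 h low library 2, 3 without 72 h low library 1, and 1 with the second number as a covariate. Myc, by comparison, was higher at the high concentration at 72 h, by 1.20 ± 0.26 (SE, adjusted p = 0.000462). Among the pathway's other genes, 18 of 92 were lower and 2 higher at 72 h.

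Set against naive cells, 72 h libraries at the high concentration had 6 members above and 13 below, where 23.5% of all tested genes were above and 20% below; those at the low concentration had 14 above and 4 below, where 26.2% and 24.1% of all genes were. Both comparisons share the naive libraries. All naive and 72 h high libraries carry the second title number 1, and both 72 h low libraries the number 2. In the comparison of low with naive, time and culture cannot be told apart from that number within the compared groups. The medians were -0.15 and 0.27. Heatr1 ended under its naive level in both, at 29.7, 30.1 and 25.9 CPM at high and 46.3 and 40.7 at low. Its differences from naive were -1.59 ± 0.19 and -0.99 ± 0.19 (SE). At high, Nolc1 (-1.51) and Rrp9 (-1.43) were the next lowest, and Npm1 (1.40) and Noc4l (0.92) were above naive. Ncl was at 1.62, on 14 counts over the 3 libraries at 72 h, and its adjusted p of 0.0348 became 0.135 without 72 h high library 2, 0.152 without 72 h high library 3, 0.0928 without naive library 1 and 0.0973 without naive library 3. At low, Noc4l (1.88) and Nop56 (1.49) were above naive, with Ncl at 1.71 (adjusted p = 0.0247, or 0.276 without 72 h low library 1, 0.0668 without naive library 1 and 0.0714 without naive library 3). Besides Heatr1 the members below naive were Rrp9 (-0.71), Polr1c (-0.60) and Nop14 (-0.44), and each of these 3 calls was lost without some library. The adjusted p of Rrp9 was 0.196 without 72 h low library 2, 0.063 without naive library 2 and 0.0855 without naive library 3. That of Polr1c was 0.062 without 72 h low library 1, and that of Nop14 was 0.679 without 72 h low library 2, 0.0638 without naive library 2 and 0.0902 without naive library 3. Bop1 was below its naive level at high (-0.85 ± 0.17, SE, adjusted p = 7.7e-05) and above it at low (0.68 ± 0.17, SE, adjusted p = 0.000951), and both calls held in every alternative run. At high, 7 of the 19 calls did so, and the count was 11 without 72 h high library 1, 12 with no filter on low counts and 9 with the compared groups alone. At low, 11 of 18 calls did so.

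**Figure D3:**
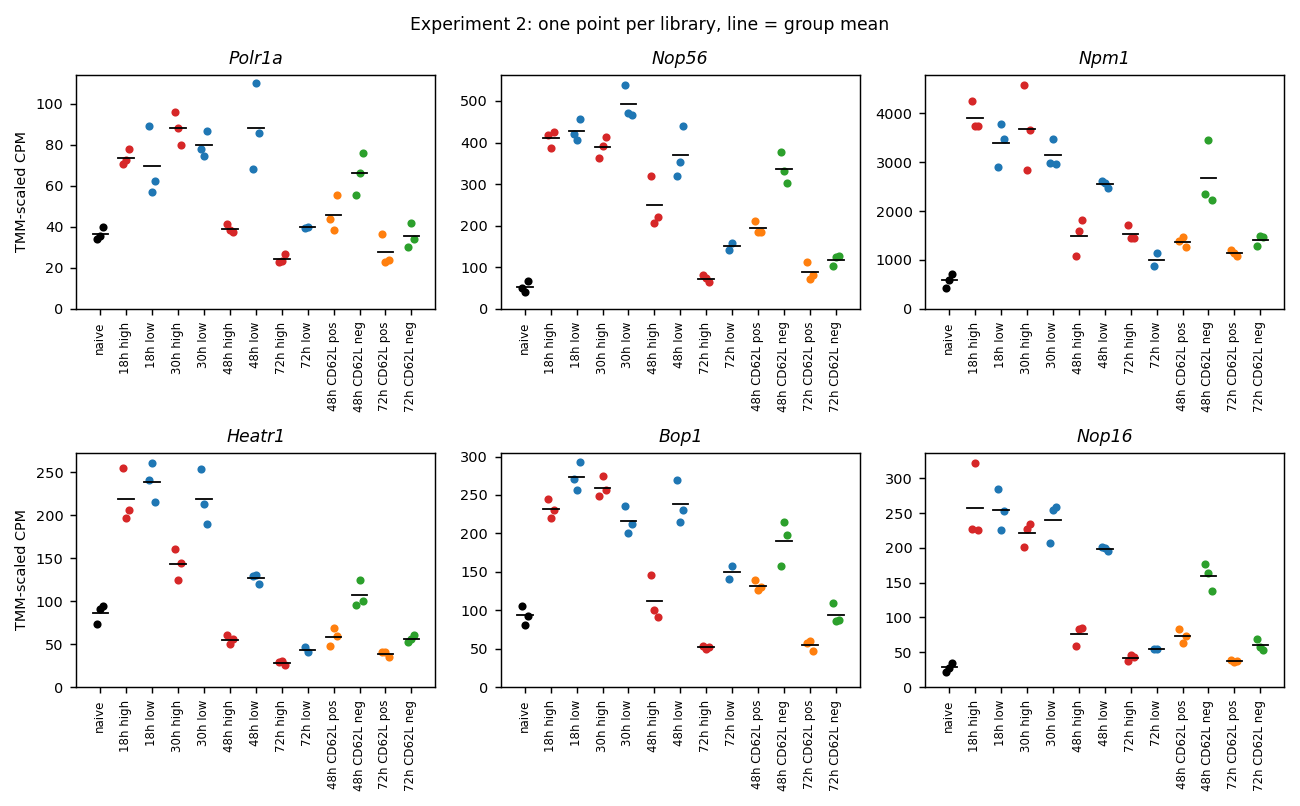
TMM-scaled CPM of 6 members in every library of experiment 2, 1 point per library with a line at the group mean; red is high and blue low concentration, orange CD62L positive and green CD62L negative. At 48 h the high points of Polr1a, Heatr1, Bop1 and Nop16 lie under the low ones, while at 72 h those of Npm1 lie above.

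Every member called between the CD62L sorts of either experiment was lower in CD62L positive cells. In experiment 2 at 48 h, 23 of 41 members were lower in positive cells and 0 higher, where 7.28% of all tested genes were lower. The median was -0.53 against 0.01 over all genes. Gar1 had the lowest value, with 134, 117 and 126 CPM in positive and 286, 327 and 438 in negative cells, which did not overlap (-1.48 ± 0.18, SE, adjusted p = 3.91e-08). Utp20 (-1.21 ± 0.23, SE), a large scaffold of the small subunit processome, and Nop16 (-1.12 ± 0.16) were also lower. Nop16 read 84, 64 and 72.7 in positive and 178, 164 and 138 CPM in negative libraries, all positive ones lying below. Ncl was at -1.21, with an adjusted p of 0.0217, or 0.0687 without 48 h CD62L negative library 2, 0.134 without 48 h CD62L positive library 1 and 0.0779 without 48 h CD62L positive library 2. Npm1 (-0.96), Nop56 (-0.79), Heatr1 (-0.88), Polr1c (-0.87) and Ppan (-0.68) were lower too. With Gar1, Utp20 and Nop16 they make the 8 members called in all 14 alternatives. Wdr75 (0.13), Nop58 (0.10) and Cd3eap (-0.12) had the highest values, none past the test. All positive libraries at 48 h carry the second number 1, as does 1 of 3 negative libraries. With libraries sharing a number alone, 3 positive against 1 negative, 14 members were lower, with the spread of the single negative library taken from the rest of the fit. Fbl, at -0.75 in the full comparison (adjusted p = 0.0145), had 0.09 against that library, whose level was 103 CPM beside 187 and 260.4 in the other negative ones. B-cell genes summed to 12.87 to 14.93 CPM in positive (Cd79a and Ms4a1 at 0) and 4.887 to 9.083 in negative cells (Ms4a1 at 0). The CD8 sum was 24.45 to 34.84 CPM in positive and 15.03 to 25.23 in negative cells, with Cd8a at 0 in both. The part of either sum was not tested. The adjusted p of Fbl was also 0.225 without 48 h CD62L negative library 3 and 0.122 without 48 h CD62L positive library 1.

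At 72 h in experiment 2, 5 members were lower in CD62L positive cells (Gar1, Bop1, Mrto4, Nop16 and Cd3eap) and 0 higher, where 0.844% of all tested genes were lower. All 41 values were below 0, with a median of -0.49 against 0.01 over all genes. Bop1 measured 57.5, 59.7 and 46.7 CPM in positive and 109, 86.1 and 87.6 in negative cells (-0.79 ± 0.17, SE, adjusted p = 0.00613). Gar1 was at -0.74, Mrto4 at -0.80, Nop16 at -0.69 and Cd3eap at -0.64. The lowest values, not past the test, were those of Nip7 (-1.49), Polr1b (-1.14) and Utp20 (-0.95), and the highest those of Wdr75 (-0.11), Rrp12 (-0.13) and Gnl2 (-0.14). No call was kept in every alternative. The count was 0 without 72 h CD62L negative library 1 and without positive library 3, 1 without positive library 2, 2 without positive library 1 or negative library 3, and 3 without negative library 2. DESeq2 called 12, and libraries sharing a second number alone, 2 against 2, gave 1. The CD8 sum was 25.34 to 29.41 CPM in positive and 13.12 to 20.28 in negative cells, with Cd8a at 0 in both, and its part was not tested. No member's positive minus negative difference changed between 48 and 72 h by edgeR's quasi-likelihood test, where 1.3% of all genes' did; 5 members had an unadjusted p under 0.05, and DESeq2 called 1, as did the fit with the second number as a covariate and that without 72 h CD62L positive library 1. For genes of the pathway outside the list, 23 of 92 were lower at 48 h and 1 at 72 h.

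Within each sort of experiment 2 the members fell from 48 to 72 h: 31 of 41 in positive cells (median -0.98; 12.3% of all tested genes fell) and 37 in negative cells (median -1.01; 12% of all), with 0 higher in either. Mrto4 (-1.75), Cd3eap (-1.69) and Polr1b (-1.65) fell most in positive cells. Ncl (-0.06), Gar1 (-0.18) and Fbl (-0.19) were closest to 0 and not past the test. In negative cells Rrp12 (-1.53), Nop2 (-1.51) and Nop56 (-1.51) fell most, and Nip7 (0.15), Fbl (-0.46), Ncl (-0.53) and Wdr12 (-0.91) did not pass the test. In all alternatives, 25 of 31 and 30 of 37 of these calls held. All positive libraries carry the second title number 1 at 48 h and they carry both numbers at 72 h. Negative libraries carry both numbers at each time.

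Experiment 1, with its own naive cells and cultures, gave the level at 48 h against naive. Over both sorts, 34 of 36 members rose and 0 fell, where 30.3% of all tested genes rose. The member median was 1.72, or 1.60 with Wdr75 at its lower bound, against 0.02 over all genes. Gnl3 (2.24 ± 1.1, SE, on 6 naive counts) and Rrp1b (0.59 ± 0.29) did not pass the test. Gar1 read 93.1, 89.1 and 115 CPM in naive libraries and 454, 605 and 568 in positive and 691, 671 and 636 in negative cells at 48 h, far apart (2.55 ± 0.18, SE, adjusted p = 1.1e-14). Ncl, well covered here, had 264, 187 and 267 CPM in naive cells and 973, 994 and 897 and 1017, 1083 and 1148 at 48 h, without overlap (2.11 ± 0.15, SE, adjusted p = 3.63e-14). Nop2 rose by 3.13, Mrto4 by 2.14, Nop56 by 1.90 and Polr1a by 1.10. For 3 members the comparison rests on almost no naive counts. Wdr75 had 83 counts at 48 h and 0 over the naive libraries, at least 2.69-fold higher with a floor of 3 counts over the group. Nop58 had 105 and 1 counts, a ratio of 10.2 (95% counting interval 1.79 to 407), and Rrp9 90 and 1, a ratio of 8.74 (1.53 to 349). These intervals are exact Poisson ones and cover counting error only. The adjusted p of Nop58 was 0.179 without naive library 2 and 0.125 without naive library 3. That of Rrp9 was 0.0931 without naive library 2. The smallest rises were Polr1c's (0.57) and Nat10's (0.58), and without naive library 2 their adjusted p was 0.0711 and 0.0903. In all 15 alternatives 27 of 34 calls held. Of other pathway genes, 64 of 90 tested rose and 4 fell, where 2846 of all 8961 tested genes fell. Among the 4 were Taf1c at -1.13 and Ddx24 at -0.62, the genes that fell in experiment 2.

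The unactivated groups of experiment 1 held markers of other cells. Summed over 3 B-cell genes, none at 0, naive libraries had 574.3 to 938.9 CPM and mature ones 390.4 to 404.7, against 3.047 to 5.037 in CD62L negative cells at 48 h, with Ms4a1 at 0 there. Myeloid genes (5 listed) summed to 465.7 to 997.3 CPM in naive, 91.39 to 120.3 in mature (S100a8 at 0) and 14.56 to 19.31 in those 48 h cells (S100a8 and S100a9 at 0). Red cell and platelet genes (5) came to 161.7 to 434.6 (Pf4 at 0), 26.92 to 40.8 (Alas2 at 0) and 9.14 to 51.36 (Pf4 and Ppbp at 0), CD8 genes (2) to 77.61 to 250.4, 32.69 to 42.43 and 11.5 to 24.37, and NK genes (2) to 15.52 to 68.4, 114.2 to 148.8 and 0 to 0.767 (Ncr1 at 0). Their part in the comparisons with naive and mature cells was not tested. Mature cells had 4 members lower than naive (Rrp12 at -1.21, Polr1a -0.78, Nolc1 -0.67 and Wdr43 -0.59) and 0 higher, where 8.59% of all tested genes were lower, so the members' share was near the background. The median was -0.21. Gnl3 (-1.34) and Rrp1b (-0.79) did not pass the test. Wdr75, Nop58 and Rrp9, the 3 with the highest fitted values, had 1, 5 and 5 counts over the mature and 0, 1 and 1 over the naive libraries, too few to compare. The count was 0 without mature library 3 or naive library 3, 1 without naive library 2, and 2 without mature library 2, with no filter on low counts or with the compared groups alone. Among pathway genes outside the list, 7 of 90 were lower and 0 higher.

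At 48 h in experiment 1, 4 of 36 members were lower in CD62L positive cells and 0 higher, where 2.46% of all tested genes were lower. They were Utp20 (-0.66 ± 0.18, SE), Rrp1b (-0.65 ± 0.2), Nop16 (-0.58 ± 0.16) and Nolc1 (-0.42 ± 0.13). Values lay below 0 for 34 of 36, with a median of -0.30 against 0.01 over all genes. Utp20 measured 113, 92.8 and 91.4 CPM in positive and 134, 171 and 165 in negative libraries, without overlap. Nop58 (-0.68) was lowest and Npm1 and Gnl3 (both 0.54) and Nop2 (-0.01) highest, none past the test. Npm1 read 2645, 182 and 689 CPM in the 3 positive libraries and 812, 1035 and 584 in the negative ones. Its first positive library stood far above the others, and so did that of Gnl3 (125, 22.6 and 16.7 CPM). B-cell genes summed to 7.817 to 13.79 CPM in positive and 3.047 to 5.037 in negative cells, and CD8 genes to 24.52 to 36.85 and 11.5 to 24.37, and their part was not tested. No call here held in every alternative: the count was 0 without 48 h CD62L negative library 2 or positive library 3, 1 without negative library 1 or positive library 2, 2 without negative library 3, 9 by DESeq2 and 8 with the compared groups alone. Of other pathway genes 7 of 90 were lower.

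At 72 h in experiment 1, 21 of 36 were lower in positive cells and 0 higher, where 9.35% of all tested genes were lower, with a median of -0.68. Markers of other cells moved with this sort. Myeloid genes summed to 39.46 to 60.5 CPM in positive and 6.188 to 18.85 in negative cells, with S100a8 and S100a9 at 0 in both, and CD8 genes to 31.82 to 53.63 and 13.14 to 17.11, with none at 0. Red cell and platelet genes overlapped (19.09 to 51.48 and 7.956 to 22.85), as did B-cell genes (7.43 to 12.87 and 7.53 to 12.38), and NK genes came to at most 1.061. Their part in the result was not tested. Gar1 had 150.2, 187 and 182 CPM in positive and 334, 350.5 and 416 in negative libraries (-1.08 ± 0.14, SE, adjusted p = 6.62e-07). All positive libraries lay far below. Mrto4, at 38.2, 45.6 and 27.9 and 69.7, 80.8 and 89.3 CPM, was apart as well (-1.03 ± 0.19, SE, adjusted p = 0.000155). Utp20 (-1.07), Rrs1 (-1.02), Nop16 (-0.96) and Nop2 (-0.89) followed. Wdr75 had 3 counts in positive and 30 in negative cells, a ratio of negative to positive of 5.05 (95% counting interval 1.57 to 25.9). Rrp9 (-1.22) did not pass the test, and Utp18 (-1.19) did but had an adjusted p of 0.0505 without 72 h CD62L negative library 1, 0.0742 without 72 h CD62L negative library 2, 0.158 without 72 h CD62L positive library 2 and 0.0985 without 72 h CD62L positive library 3. Npm1 (0.40), Wdr12 (0.13) and Noc3l (-0.17) were highest, none past the test. All 4 of the H/ACA group were lower, and 13 of 21 calls held in all 12 alternatives. In the rest of the pathway, 21 of 90 were lower. The difference of 1 member, Gar1, changed between 48 and 72 h (-0.79 ± 0.19, SE, adjusted p = 0.0235), where 1.29% of all genes had a lower difference at 72 h. Without 72 h CD62L positive library 1 its adjusted p was 0.0703 and no member was called, while 2 were without any other of the 72 h libraries.

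Members fell from 48 to 72 h in experiment 1 in 33 of 36 cases in positive cells (median -1.45; 20.3% of all tested genes fell) and in 33 of 36 in negative cells (median -1.09; 16.6% of all), with 0 higher. Wdr12 (-0.29), Npm1 (-1.16) and Nop58 (-0.92) did not pass the test in positive cells, nor did Gnl3 (-1.51), Nop58 (-0.81) and Npm1 (-1.02) in negative cells. Gnl3 (-2.72), Nop2 (-2.23) and Nop56 (-2.21) fell most among positive-cell members with over 3 counts in each group. The value of Gnl3 was -1.29 without 48 h CD62L positive library 1, and Gnl3 was not called with the compared groups alone. Wdr75 had 30 counts at 48 h and 3 at 72 h, a ratio of 8.47 (95% counting interval 2.63 to 43.4). In negative cells Rrp12 (-1.50) and Ppan (-1.48) fell most, and Polr1c (-0.35) fell least. Myeloid genes in positive cells went from 15.04 to 18.98 CPM at 48 h to 39.46 to 60.5 at 72 h, and their part was not tested. In the alternatives, 30 of 33 and 29 of 33 calls held throughout. Other genes of the pathway fell in 72 of 90 cases in positive and 64 in negative cells.

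**Figure D4:**
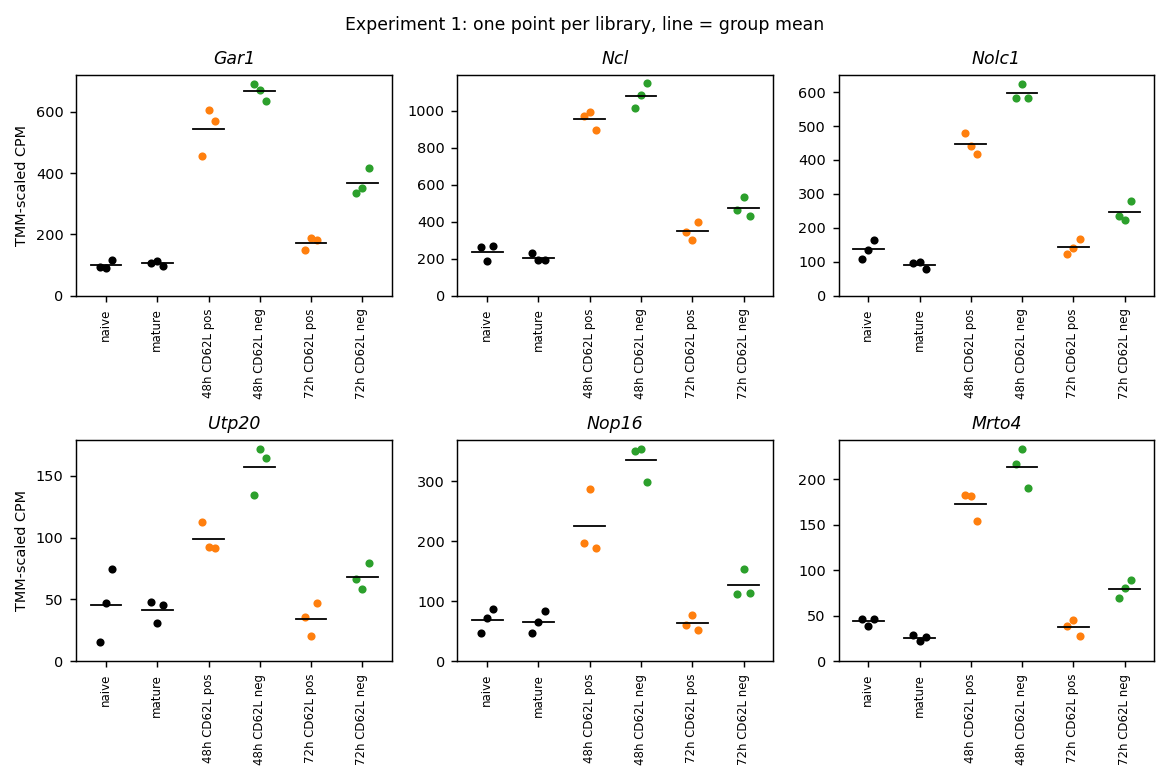
TMM-scaled CPM of 6 members in every library of experiment 1, 1 point per library with a line at the group mean; black is not activated, orange CD62L positive and green CD62L negative. All 6 stand highest in CD62L negative cells at 48 h, and at 72 h the orange points lie under the green ones.

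The sorts of the 2 experiments share no library. Of 36 members tested in both, 32 had a positive minus negative value below 0 in both at 48 h and 34 at 72 h. Called lower in both were Nolc1, Nop16 and Utp20 at 48 h, 3 of the 4 called in experiment 1 and of the 21 of these members called in experiment 2. At 72 h they were Gar1, Mrto4 and Nop16, 3 of 21 and 3 of 5. Of all tested genes, 2.46% were lower in experiment 1 and 7.28% in experiment 2 at 48 h, and 9.35% and 0.844% at 72 h. How many of all genes were below 0 or called lower in both experiments was not counted, so the joint counts have no background. Pearson's r between the values of the 2 experiments was -0.07 at 48 h and -0.03 at 72 h across the 36 members, a description over genes that share libraries within each experiment. Nop16 was the member called lower at both times in both experiments, but the experiment 2 call at 72 h was lost without any 1 of its 6 libraries (adjusted p 0.0502 to 0.24) and the experiment 1 call at 48 h without any of 4 (0.0783 to 0.138). Its values were -0.58 and -1.12 at 48 h and -0.96 and -0.69 at 72 h, in experiments 1 and 2.

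**Figure D5:**
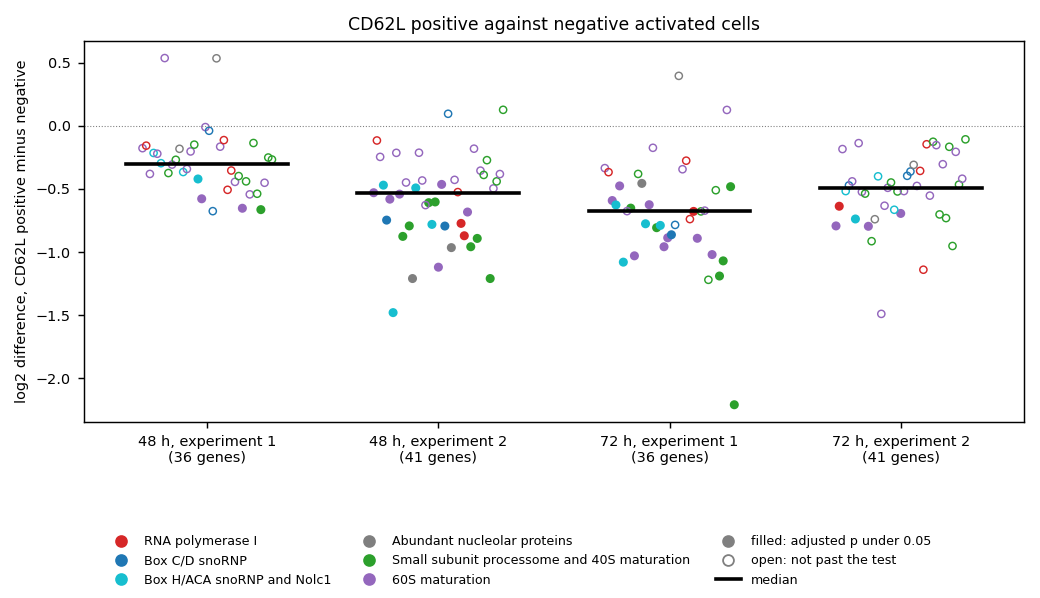
CD62L positive minus negative log2 difference of each member at 48 and 72 h in both experiments (36 members in experiment 1, 41 in experiment 2), coloured by role and filled where the adjusted p is under 0.05; bars are medians. Nearly all points lie below 0, and 4, 23, 21 and 5 are filled, from left to right.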

How the data were processed

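Reverse transcription used poly-T primers with a sample index and a molecular identifier, followed by linear amplification, per the labels' protocols, so reads come from transcript 3′ ends. Tools in the submitters' processing notes are HTSeq 0.9.1, STAR 2.5.2b, HISAT 0.1.5, FastQC 0.11.7 and bcl2fastq 2.17.1.14, and the build is mm9. Not given in the sources used here are the aligner of each table, collapsing of identifiers, annotation and strand setting. The authors deposited whole-number counts per gene symbol and library, with no further scaling.

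Each table was fitted on its own in edgeR 4.0.16 (R 4.3.3): filterByExpr with a minimum count of 10, TMM, 1 coefficient per group and the robust quasi-likelihood test, with Benjamini-Hochberg adjustment over all genes (threshold 0.05). Scripts were tested on simulated data. The 26 comparisons were repeated with DESeq2 1.42.0, RLE scaling, ribosomal protein genes left out, no filter, a replicate block, the compared groups alone, each library left out in turn and the second title number. Replicate library pairs differed by more than counting noise.

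One B-cell marker is not reported here, and the B-cell sums leave it out. The members, lists and rules were chosen with earlier results of these data known. Named were 20 members spread over roles, and per comparison the 3 highest and 3 lowest and, where 5 or fewer, members not called or called against the majority (3 smallest adjusted p for interactions). Promoters are RefSeq's on GRCm38.p6; the files use mm9, so these coordinates were not joined to them.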

Additional observations from a re-analysis of the deposited data

Results flagged for a closer look

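The difference between the high and low starting concentration changed with time, by edgeR's quasi-likelihood test of the interaction with Benjamini-Hochberg adjustment. From 18 to 48 h it became lower for 20 of 41 members, where 7.71% of all tested genes had a lower one, among them Nop16 (by a log2 change of -1.39), Nhp2 (-1.10) and Ftsj3 (-1.31). From 48 to 72 h it became higher for 8 members, where 4.68% of all tested genes had a higher one, among them Npm1 (1.38), Ddx21 (1.22) and Polr1c (0.88). That count was 3 without 72 h low library 1 and 1 with the second title number as a covariate, and of the 8 members Npm1 was called in all 18 alternatives.

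In experiment 1 the CD62L positive minus negative difference changed between 48 and 72 h for 1 of 36 members, where 1.29% of all tested genes had a lower one. It was Gar1, whose difference was lower at 72 h by a log2 change of -0.79, with an adjusted p of 0.0235 by the same test, or 0.0703 without 72 h CD62L positive library 1. Groups of 2 or 3 libraries are too small for a test of single outlying libraries.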

How the results depend on the processing

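The calls at 18 h against naive (40) and the direction of every named member that was called held under all alternatives, except Fbl in CD62L positive against negative cells at 48 h in experiment 2, at 0.0879 with libraries sharing a second title number. Counts of members called moved by over 1.5 times as follows. With the second number as a covariate they were 6 (main 15) for 30 against 18 h, 1 (8) for the change of the concentration difference from 48 to 72 h, and 1 (0) for the change of the CD62L difference in experiment 2. Libraries sharing that number gave 21 (33) for high against low at 48 h, and 14 (23) and 1 (5) for CD62L at 48 and 72 h in experiment 2, on 3 against 1, 3 against 1 and 2 against 2 libraries. With no filter on low counts, the counts were 9 (15) for 30 against 18 h, 12 (19) for 72 h high against naive, 2 (4) for mature against naive and 2 (1) for the CD62L change in experiment 1. Compared groups alone gave 9 (19) for 72 h high against naive, 1 (0) for high against low at 18 h, 2 (4) for mature against naive and 8 (4) for CD62L at 48 h in experiment 1. DESeq2 gave 12 (5) for CD62L at 72 h and 1 (0) for its change in experiment 2, and 9 (4) at 48 h and 3 (1) for its change in experiment 1. The cause was not tested. Leaving out 1 library gave 7 to 13 (16) for 48 against 30 h at low, 11 to 17 (19) for 72 h high against naive, 3 to 7 (8) and 9 to 14 (15) for high against low at 30 and 72 h, 3 to 10 (8) for its change from 48 to 72 h, 0 to 3 (5) for CD62L at 72 h and 0 to 1 (0) for its change in experiment 2, 0 to 3 (4) for mature against naive, 0 to 4 (4) for CD62L at 48 h and 0 to 2 (1) for its change in experiment 1. A group cut to 1 library is assumed to vary like the others.

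Same-numbered libraries of different groups correlated in their deviations with a median r of -0.0121 in experiment 1 and 0.00193 in experiment 2. Differently numbered ones had 0.00475 and -0.00368. The highest r was 0.398 and 0.49 for the same number, and 0.365 and 0.401 for different ones. The median runs over all pairs of groups. A pairing limited to some groups, such as sorts of the same culture, would not show in it. A replicate block moved 4 of 26 counts, to 20 (19) for 72 h high against naive, 7 (8) for the concentration change from 48 to 72 h, 4 (5) for CD62L at 72 h in experiment 2 and 3 (4) for mature against naive.

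Depth limits Ncl and Nip7 in experiment 2 and Fbl, Gnl3, Nop58, Rrp9 and Wdr75 in experiment 1, where naive libraries are shallow and 1 has 58750 counts. The tables come from different culture plates and cannot be joined, the second title number runs along with several comparisons, and protein and rRNA output were not measured.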

Other observations

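The genes of the pathway outside the list were counted by step. At 18 h against naive in experiment 2, all 12 tested RNA exosome genes rose, as did 29 of 31 further small subunit factors, 28 of 33 large subunit factors and 6 of 7 snoRNP assembly factors. Of 9 genes listed for RNA polymerase I and its factors, 5 rose and 1 fell. Over all tested genes, 32.3% rose. Rrn3, which makes the polymerase competent to start, rose by 1.56 and Taf1d by 2.29, whereas Tcof1, a nucleolar scaffold, was at 0.20 and did not pass the test. The exosome's smallest rises included Exosc10 (0.43) and Exosc5 (0.45), and Nifk, a large subunit factor, rose by 3.14.

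At 48 h, 20 of 31 small subunit factors, 16 of 33 large subunit factors, 7 of 12 exosome genes, 3 of 7 snoRNP assembly factors and 1 of 9 polymerase I genes were lower at the high than at the low concentration, and 0 were higher. Of all tested genes 12% were lower, so the count of polymerase I genes was near the background. The polymerase I gene was Rrn3, at -0.71, named after its value was seen. Pno1 was at -1.70 and Nifk at -1.15. In experiment 1 at 48 h against naive, 8 of 8 snoRNP assembly factors rose, where 30.3% of all tested genes rose. Of 8 polymerase I genes 2 rose and 2 fell, where 2716 of all 8961 tested genes rose and 2846 fell. Both polymerase I counts were thus near the background. The 2 that fell were Ubtf, the upstream binding factor of ribosomal DNA, at -0.64 and Taf1c at -1.13. Genes in these paragraphs were chosen after their values were seen, and no test compared the groups with each other.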
